A study of Mus musculus with 2 samples.

Results

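Nuclear-encoded subunits of the oxidative phosphorylation machinery were followed in donor T cells at days +7 and +14 after allogeneic hematopoietic cell transplantation (allo-HCT). Genes were chosen by symbol, as the Ndufa, Ndufb, Ndufc, Ndufs and Ndufv subunits, Sdha to Sdhd, Uqcr, Cox4 to Cox8 and Atp5 families without the Ndufaf assembly factors. The choice took 85 of 32285 genes. Complex I had 35 of them, complex II 4, complex III 8, complex IV 20 and complex V 17. The remaining gene, Ndufb1-ps, is annotated as a noncoding RNA and stayed out of the sums over complexes, which therefore held 84 genes. Ndufa4 and Ndufa4l2 were put with complex IV, because the NDUFA4 protein is a subunit of that complex.

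The cells came from irradiated BALB/c recipients (H2kd) that had received T cell-depleted C57BL/6 bone marrow and, per the labels, 200000 purified naive splenic T cells, in a fully mismatched mouse model of graft-versus-host disease. The study's main figure legend for this experiment gives a larger T cell dose and its supplementary legend gives 200000, and neither calls the cells naive. Its methods refer to the general model, which uses 200000 naive cells. Its mice were 6 to 12 weeks old, and it names females in one place and both sexes in another. Spleen cells positive for CD45, H2kb and TCRβ and negative for H2kd were sorted as donor T cells, suspensions of 5 spleens were pooled, and 1 droplet library was made for each day. The labels carry PBS in both library names and give no donor genotype, and the study describes wild-type C57BL/6 donors for this experiment. Where 2 values are joined by "and" with no other label, the first is for day +7 and the second for day +14. Both samples are labelled with a sort on day +7 in their protocol, although their titles and the design give day +7 and day +14. With 1 library per day there is no replicate and no test between days. All intervals below are 95% intervals of counting error only, and a difference between days cannot be told apart from a difference between the 2 libraries.

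Oxidative phosphorylation passes electrons from NADH through complex I (NADH dehydrogenase) and from succinate through complex II (succinate dehydrogenase) to ubiquinone, then through complex III (cytochrome bc1) and cytochrome c to complex IV (cytochrome c oxidase), which reduces oxygen. Complexes I, III and IV pump protons, and complex V (ATP synthase) uses the gradient to make ATP. Complexes I, III, IV and V each combine nuclear subunits with subunits made inside the mitochondrion, whereas every subunit of complex II is nuclear and the enzyme is shared with the tricarboxylic acid cycle. Activated T cells are known to expand mitochondrial mass together with glycolysis as they proliferate.

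The matrices held 7355 barcodes with 87124828 unique molecular identifiers (UMIs, each standing for 1 captured RNA molecule) at day +7, and 8043 barcodes with 84233811 UMIs at day +14. Barcodes with 500 to 7500 detected genes and at most 15% mitochondrial UMIs were kept, leaving 7179 and 7794 cells with medians of 9210 and 8144 UMIs. Among them 6953 and 7613 cells met the T cell criterion, at least 3 UMIs of a list of 6 Cd3 and T cell receptor constant genes (the T list). Barcodes richer in markers of granulocytes, macrophages, erythroid, B or megakaryocyte cells than in T markers numbered 212 and 153, and were called non-T. The other 14 and 28 cells met neither criterion. The libraries shared 17 kept barcode sequences. T cells were 96.9% and 97.7% of the kept cells, and over all kept cells the T list summed to 5687 and 7521 counts per 1000000 UMIs (CPM).

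The 84 subunit genes took 2987783 UMIs at day +7, or 3.44% of all UMIs in kept cells, and 2683805 at day +14, or 3.20%. Their summed level was 34443 CPM and 32023 CPM, a log2 ratio of day +14 over day +7 of −0.11 (interval −0.11 to −0.10). A median cell held 317 subunit UMIs at day +7 and 260 at day +14, the second library also being the shallower.

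Complexes I and IV were lower at day +14 by the widest margin. Complex I summed to 9641 and 8714 CPM, a log2 ratio of −0.15 (−0.15 to −0.14). Complex IV summed to 10025 and 9210 CPM (−0.12, −0.13 to −0.12). Complex V, the largest sum, was at 11134 and 10580 CPM, a ratio of −0.074 (−0.078 to −0.070), and complex III at 3164 and 3037 CPM was at −0.059 (−0.067 to −0.051). Complex II stood apart, with 479 and 482 CPM and a ratio of 0.0081 whose interval spanned 0 (−0.012 to 0.028). Its share of all subunit UMIs was 1.39% and 1.5%, the share of complex I 28% and 27.2%.

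These values were read against all genes, because the total is shared among them. Among 6919 genes that averaged 10 CPM or more, the median ratio was 0.18 on the log2 scale, so all 5 complexes, complex II included, lay below the median gene, by 0.17 for complex II and by 0.32 for complex I. Scaling by the median ratio of genes in place of the total lowers every ratio in all kept cells by 0.21 and puts complex II at −0.20. The gap was narrower among abundant genes. At a mean of at least 200 CPM, 681 genes had a median of −0.011 and the 57 subunit genes at that level a median of −0.12.

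Of the 84 subunit genes, 76 reached a mean of 10 CPM, and the 8 that did not are isoforms of complex IV described below. Of these 76, 59 were lower at day +14 and 17 higher (77.6% lower, against 26.8% of all genes), and with median-ratio scaling 73 were lower and 3 (Cox7a2, Ndufs1 and Sdha) higher, so the other 14 genes with higher CPM at day +14 lay below 0 on that scale. A fold limit was set at a log2 ratio of 0.32 in either direction, on the log2(CPM + 1) scale. It was passed downward by 2 subunit genes, against 5.56% of all genes, and upward by 0, against 29% of all genes. With median-ratio scaling, which lowers every gene alike by 0.21, 35 of the 76 passed it downward and 0 upward. The 26.8% of all genes is for the ratios before that shift, and the median gene, at 0.18, also falls below 0 after it. The shares of all genes below 0 and past the limit on that scale were not counted. Neither the 73 nor the 35 therefore has a background beside it. At the ends of their transcripts, 14 of the 85 genes had a near-identical copy elsewhere (97% identity over at least 91 of the first or last 200 bases), so their counts may be split or lost and are uncertain. Among them are Ndufb11, Uqcr11, Cox5b, Cox6a1, Cox7a2l, Atp5h, Atp5g1 and Atp5g2. The plot of each subunit gene shows that complexes I, IV and V lean to the left as groups while complexes II and III straddle 0.

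**Figure D1:**
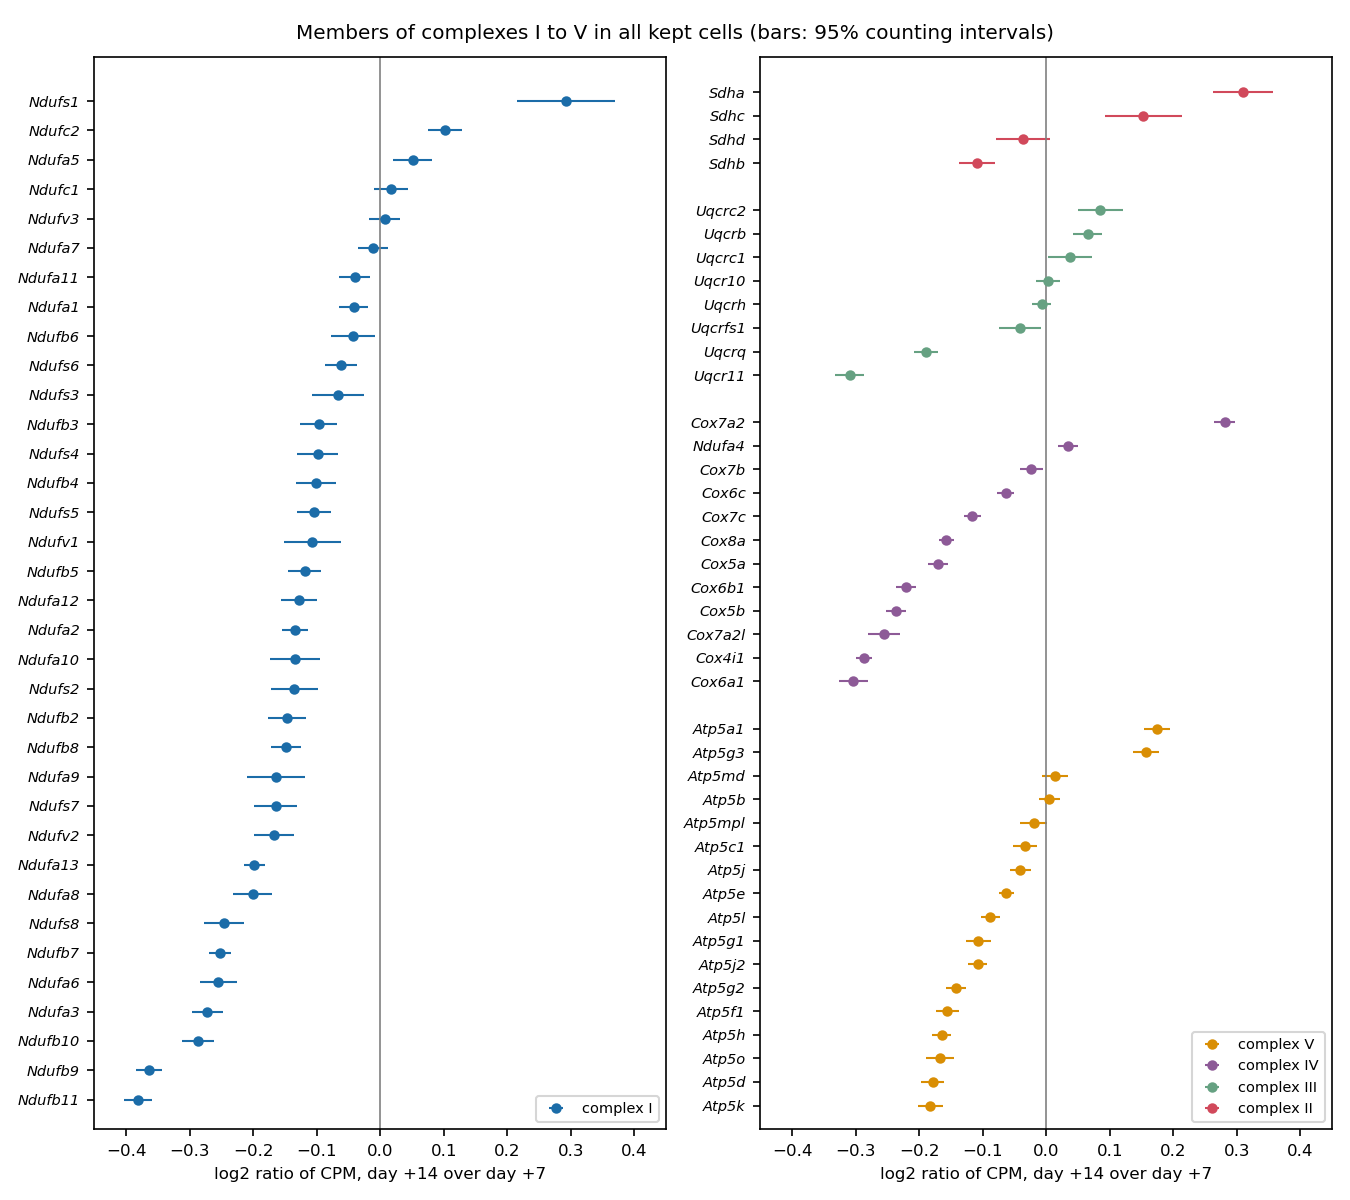
Log2 ratio of CPM at day +14 over day +7 for each of the 76 subunit genes that averaged 10 CPM or more in all kept cells, grouped by complex, with bars for 95% counting intervals. Most of complex I (30 of 35) and complex IV (10 of 12) lies left of 0, Ndufb11 and Ndufb9 lie farthest left, and Sdha, Ndufs1 and Cox7a2 lie farthest right.

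In complex I, 30 of 35 genes were lower at day +14 and 5 higher, with a median log2 ratio of −0.13. Its 3 lowest ratios were in Ndufb genes, which encode accessory subunits of the membrane arm. Ndufb11 (chrX:20615326-20617619, mm10) was at 448 and 344 CPM, a ratio of −0.38 (−0.40 to −0.36). Ndufb9 (chr15:58933756-58939488) was at 503 and 391 CPM, a ratio of −0.36 (−0.39 to −0.34). These are the 2 genes past the fold limit. Ndufb10 was at 321 and 263 CPM (−0.29) and Ndufb7 at 657 and 552 CPM (−0.25). Not every Ndufb gene was as low, and Ndufb6 was at 158 and 153 CPM (−0.043). Ndufa3, another accessory subunit, was at 354 and 293 CPM (−0.27). Summed over the 10 Ndufb genes, the level was 3388 CPM and 2896 CPM, a ratio of −0.23 (−0.23 to −0.22). That sum leaves out Ndufb1-ps, which went the other way, at 476 and 527 CPM (0.15). The 7 core subunits that carry the flavin and iron-sulfur clusters were at 975 and 882 CPM, −0.14 (−0.16 to −0.13). The most abundant complex I gene, Ndufa13, an accessory subunit, was at 743 and 647 CPM (−0.20).

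Ndufs1 went the other way. It encodes the largest core subunit, which holds iron-sulfur clusters of the electron path, and its gene spans chr1:63143596-63176833. It was among the least abundant members, at 29.02 and 35.5 CPM, a log2 ratio of 0.29 (0.22 to 0.37). Ndufc2, a membrane arm accessory subunit, was at 252 and 270 CPM (0.10). The 7 core genes did not share 1 direction, since Ndufs8, another iron-sulfur subunit, was at 212 and 179 CPM (−0.25).

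The 4 genes of complex II were split, and the summed level hid this. Sdha, the flavoprotein that oxidizes succinate (chr13:74322254-74350280), was at 75.01 and 92.97 CPM, a log2 ratio of 0.31 (0.26 to 0.36), the highest among the 76 genes. Its iron-sulfur partner Sdhb was at 250 and 232 CPM, −0.11 (−0.14 to −0.081). The membrane anchors also differed from each other, with Sdhc at 49.0 and 54.5 CPM, 0.15 (0.092 to 0.21), and Sdhd at 105 and 102 CPM, −0.036 (−0.079 to 0.0064). Sdhb was the most abundant of the 4, and a lower Sdhb and a higher Sdha left the sum of the 2 catalytic genes at 325 CPM on both days (log2 ratio −0.00083, interval −0.025 to 0.023).

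Complex III held 4 higher and 4 lower genes. The core proteins Uqcrc1 and Uqcrc2 and the Rieske protein Uqcrfs1 summed to 484 and 492 CPM, a log2 ratio of 0.024 (0.0041 to 0.043), whereas the 5 small subunits were at 2681 and 2545 CPM, −0.075 (−0.083 to −0.066). Uqcr11, a small membrane subunit, was at 419 and 338 CPM, a ratio of −0.31 (−0.33 to −0.29). Uqcrq was at 546 and 479 CPM (−0.19). The hinge protein gene Uqcrh, the most abundant of the complex, was at 834 and 830 CPM (−0.0072, interval −0.022 to 0.0079), and Uqcr10 at 532 and 533 CPM. Uqcrc2 was at 147 and 156 CPM (0.085) and Uqcrb at 349 and 365 CPM (0.065). In CD8 cells Uqcr11 was at 399 and 344 CPM, a smaller difference (−0.21), and in non-T cells at 782 and 357 CPM (−1.13). The non-T cells held 124 and 28 erythroid-type cells, whose part in the Uqcr11 value was not tested beyond this comparison of gates.

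Within complex IV, 10 of 12 genes were lower. Cox4i1, the largest nuclear subunit, had 108751 UMIs at day +7 and 86122 at day +14, or 1254 and 1028 CPM, a log2 ratio of −0.29 (−0.30 to −0.27). Cox6a1 was at 424 and 343 CPM, −0.30 (−0.33 to −0.28). Cox8a was at 1350 and 1210 CPM and Cox6c at 1119 and 1071 CPM (−0.064). The exceptions were Ndufa4, at 722 and 740 CPM (0.035), and Cox7a2, which is described with its paralogs below.

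Complex V held 13 lower and 4 higher genes. The catalytic head, or F1, showed both directions. Atp5a1, the alpha subunit, was at 420 and 474 CPM, a log2 ratio of 0.17 (0.15 to 0.20). Atp5b, the beta subunit that carries the catalytic sites, was at 714 and 716 CPM (0.0051), and Atp5d, the delta subunit, at 602 and 532 CPM, −0.18 (−0.20 to −0.16). The 4 peripheral stalk genes, which hold the head still against the rotor, were lower together, at 2729 and 2494 CPM (−0.13, interval −0.14 to −0.12). Atp5h, a stalk subunit, was at 979 and 873 CPM (−0.16). Among the small membrane subunits, Atp5k was at 518 and 456 CPM (−0.18) and Atp5j2 at 881 and 818 CPM (−0.11). Atp5e, the epsilon subunit and the gene with the most UMIs of all, was at 1365 and 1306 CPM.

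Promoters of nuclear subunit genes are known for sites of nuclear respiratory factor 1 (NRF1) and of ETS family factors such as GABP. For 67 of the 84 genes the 250 bases before the transcript start were at hand (RefSeq, mm10). The NRF1-type core GCGCATGC, or its reverse complement GCATGCGC, stood in 8 of them (11.9%), against 2.56% of 27025 genes. The ETS-type core CCGGAAG, or its reverse complement CTTCCGG, stood in 12 (17.9%), against 7.83%. The letters AAGATGGC or their reverse complement, a core of the YY1 motif, stood in 1 (1.49%), against 1.83%. The forward and reverse NRF1-type letters can overlap in 1 site and were counted once. The sequences below show 1 such site for members of complexes I to V that the results name, with the matched letters in capitals and each on the strand of its gene. A match is a description of the letters, not a binding site.
Ndufa6 (complex I, chr15:82354339-82354398, minus strand, NRF1-type): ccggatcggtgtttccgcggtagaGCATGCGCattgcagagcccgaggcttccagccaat
Sdhb (complex II, chr4:140961193-140961252, plus strand, NRF1-type): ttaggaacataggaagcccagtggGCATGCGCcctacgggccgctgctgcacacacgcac
Uqcr11 (complex III, chr10:80406853-80406911, minus strand, ETS-type): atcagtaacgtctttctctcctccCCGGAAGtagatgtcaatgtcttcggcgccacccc
Cox6a1 (complex IV, chr5:115349085-115349144, minus strand, NRF1-type): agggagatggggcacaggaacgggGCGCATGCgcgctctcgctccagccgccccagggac
Atp5k (complex V, chr5:108434414-108434473, minus strand, NRF1-type): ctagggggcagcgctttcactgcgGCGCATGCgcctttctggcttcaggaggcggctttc
All 5 of these genes had ratios below 0, as did 59 of the 76. Nrf1 itself was at 28.6 and 35.6 CPM (log2 ratio 0.32) and Gabpa, a GABP subunit, at 23.8 and 29.8 CPM (0.33). Beside them, the median over all genes was 0.18, and 29% of all genes were past the fold limit upward.

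Several subunits are encoded by paralogs, and their balance differed between the days. Cox7a2 and Cox7a2l are related proteins, the latter known as a factor that joins complexes III and IV into supercomplexes. Supercomplexes were not measured here, and the values are of RNA only. Cox7a2 had 57979 UMIs at day +7 and 68050 at day +14 (668 and 812 CPM, log2 ratio 0.28, interval 0.26 to 0.30), while Cox7a2l had 28070 and 22715 (324 and 271 CPM, −0.26). Of the UMIs of Cox7a1, Cox7a2 and Cox7a2l together, Cox7a2 took 67.2% (exact binomial interval 66.8% to 67.5%) at day +7 and 74.7% (74.4% to 74.9%) at day +14. In the CD8 gate the shares were 67.0% and 75.5%, and in the CD4 gate 65.1% and 67.2%, with overlapping intervals (63.7% to 66.5% and 65.8% to 68.5%). Cox7a2 itself was at 672 and 849 CPM in CD8 cells (0.34) and at 621 and 628 CPM in CD4 cells (0.016, interval −0.057 to 0.090). The higher day +14 level of Cox7a2 was thus seen in CD8 cells. In CD4 cells the counting interval included 0 and lay below the CD8 ratio, and whether the gates differ was not tested.

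The c ring of ATP synthase is built from a single mature protein encoded by Atp5g1, Atp5g2 and Atp5g3. Atp5g2 took the largest share, 44.7% at day +7 and 41.9% at day +14. Atp5g3 took 25.3% and 29.2% and was at 425 and 474 CPM (log2 ratio 0.16, interval 0.14 to 0.18), and Atp5g1 was at 503 and 467 CPM (−0.11). The Atp5g1 value depended on the cells included. Within CD8 cells it was at 464 and 467 CPM (0.010, interval −0.012 to 0.033), and in erythroid-type cells Atp5g1 took 48.5% and 49.2% of the 3 genes.

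The tissue isoforms of complex IV were rare, as is known for cells outside muscle, lung and testis. Cox7b2 and Cox8b had 0 UMIs on both days, which allows up to 0.0346 and 0.0358 CPM (3 UMIs in the library). Cox8c had 1 UMI in each library, Cox4i2 had 5 and 15, and Ndufa4l2 had 8 and 0. Cox7a1, the heart and muscle form, had 292 and 386 UMIs (3.37 and 4.61 CPM, log2 ratio 0.45, interval 0.23 to 0.68). Cox6a2, another muscle form, had 72 and 16 UMIs, of which 61 and 9 were in CD8 cells (0.89 and 0.14 CPM), a ratio of −2.70 there with an interval from −3.90 to −1.69.

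Cox6b2, the testis form of Cox6b1, had a ratio below 0 over all kept cells and above 0 within the classes that held most of its UMIs. It had 475 UMIs at day +7 and 228 at day +14 in all kept cells, a log2 ratio of −1.01. Of these, 310 and 27 were in erythroid-type cells (124 and 28 cells), at 86.1 and 135 CPM there (0.65, 0.026 to 1.22), where it took 10.1% (9.03% to 11.2%) and 13.4% (9.0% to 18.8%) of the Cox6b UMIs. In CD8 cells it had 125 and 156 UMIs, or 1.82 and 2.37 CPM, a ratio of 0.38 (0.027 to 0.73) and 0.21% and 0.32% of the Cox6b UMIs.

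T cells were then divided by raw marker UMIs. The CD4 gate (at least 1 Cd4 and no Cd8a, Cd8b1 or Foxp3 UMI) held 457 and 695 cells, the CD8 gate (at least 1 Cd8a or Cd8b1 and no Cd4 or Foxp3 UMI) 5833 and 5950, and the Foxp3+ gate (at least 1 Foxp3 and no Cd8 UMI) 41 and 39. T cells with UMIs of both lineages (206 and 522), of neither (274 and 372), or of Foxp3 together with Cd8 were counted only among all T cells. Median depth was 8228 and 5325 UMIs in the CD4 gate, and 9241 and 8608 in the CD8 gate. The question was whether the lower day +14 level was shared by the lineages.

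It was seen in each lineage gate. All subunits summed were at 32555 and 30678 CPM in CD4 cells (log2 ratio −0.086, interval −0.096 to −0.075), at 34698 and 32458 CPM in CD8 cells (−0.096, −0.099 to −0.094), and at 32668 and 30312 CPM in Foxp3+ cells (−0.11, −0.15 to −0.067). The size depended on the scale. Median-ratio scaling gave −0.179, −0.315 and −0.059 in the CD4, CD8 and Foxp3+ gates, and the mean of per-cell CPM gave −0.184, −0.137 and −0.160. The median ratio was taken over genes with at least 100 UMIs on each day in the gate. These were 4463, 9852 and 364 genes, so the scaled values rest on different genes and are not directly comparable between gates. Complex II again had the highest ratio of the 5 complexes in each gate, 0.076 (−0.011 to 0.16) in CD4 cells, 0.018 (−0.0043 to 0.040) in CD8 cells and 0.31 (−0.014 to 0.64) in Foxp3+ cells, where it rests on 174 and 144 UMIs. All 3 intervals included 0. Complex II kept the highest ratio in each of the 7 settings tried for each of these gates, although with median-ratio scaling its own ratio was below 0 in CD4 and CD8 cells (−0.017 and −0.20).

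Calls past the fold limit were few beside the background in the lineage gates. In CD4 cells 3 subunit genes were lower past that fold (background 7.23%), namely Ndufb11, Uqcr11 and Cox6a1, and 2 were higher, Sdha and Sdhc (background 33.6%). In CD8 cells 2 were lower, Ndufb11 and Ndufb9 (background 6.09%), and 3 higher, Ndufs1, Sdha and Cox7a2 (background 30.8%). In the small Foxp3+ gate 11 were lower (background 21.4%) and 7 higher (background 40.8%), but few UMIs stood behind each. Sdhc in that gate was at 49.1 and 27.2 CPM with an interval of the log2 ratio from −2.35 to 0.46. Ndufb11 was low in both larger gates, at 409 and 299 CPM in CD4 cells (−0.45) and at 459 and 353 CPM in CD8 cells (−0.38).

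**Figure D2:**
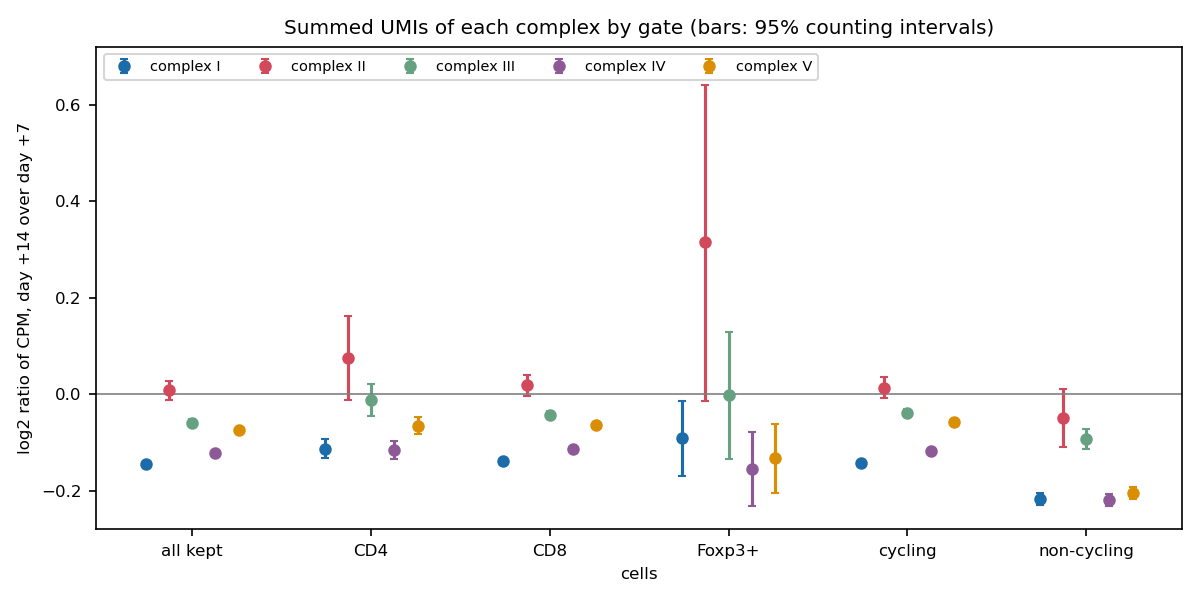
Log2 ratio of the summed CPM of each complex at day +14 over day +7, in all kept cells and in 5 T cell gates, with bars for 95% counting intervals. Complex II is the highest point in each gate, complexes I and IV lie near −0.22 in non-cycling cells, and the Foxp3+ bars are the widest.

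CD4 cells had slightly lower subunit levels than CD8 cells on each day, with log2 ratios of CD4 over CD8 of −0.092 (−0.099 to −0.085) at day +7 and −0.081 (−0.089 to −0.074) at day +14. At day +7, 0 of 76 genes passed the fold limit either way (backgrounds 7.25% lower and 10.7% higher). At day +14, 3 were lower in CD4 cells (background 11%), all of complex IV, and 0 higher (background 15.7%). Cox7a2 was at 628 CPM in CD4 and 849 CPM in CD8 cells then (−0.44), Cox5a at 555 against 702 CPM (−0.34) and Cox6a1 at 281 against 355 CPM (−0.33). Cox5a also had a lower CD4 level at day +7, at 650 against 785 CPM (−0.27). Complex III was the exception, with a ratio of 0.0068 (−0.017 to 0.031) at day +14. Within cycling cells the CD4 over CD8 ratio of all subunits was −0.073 at day +7 and −0.022 (−0.031 to −0.014) at day +14. Within non-cycling cells it was −0.058 and −0.057. Cycling cells were 254 of 457 and 356 of 695 in the CD4 gate. In the CD8 gate they were 4288 of 5833 and 4544 of 5950. The part of cell state in the difference between the gates was not tested. Foxp3+ cells did not differ from the CD4 gate beyond counting error in the summed level, with ratios over CD4 of 0.0050 (−0.021 to 0.031) at day +7 and −0.017 (−0.050 to 0.016) at day +14.

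Cycling T cells were those with at least 5 UMIs per 10000 of a 20-gene list of replication and mitosis genes, 4969 cells at day +7 and 5556 at day +14, and the other 1984 and 2057 were non-cycling. In cycling cells the summed subunits were at 35120 and 32860 CPM (log2 ratio −0.096, interval −0.099 to −0.093), and in non-cycling cells at 31530 and 27450 CPM (−0.20, −0.21 to −0.19). Median-ratio scaling gave −0.311 and −0.410 for the 2 states. Complex V showed the gap most plainly, with −0.058 in cycling and −0.21 in non-cycling cells. The same order was seen within the lineages, with −0.041 in cycling and −0.19 in non-cycling CD4 cells, and −0.091 and −0.19 in CD8 cells. Whether the 2 states differ in this respect could not be tested with 1 library per day.

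In cycling cells, 2 subunit genes were lower past the fold limit (background 5.81%) and 1, Ndufs1, higher (background 29.3%). In non-cycling cells, 14 of 76 (18.4%) were lower past that fold, against a background of 8.58%, and 2, Sdha and Ndufs1, higher, against 38.1%. Among genes of at least 100 CPM, 16.3% were lower past the fold in non-cycling cells, so that the subunits' share was close to that of genes of like abundance.

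The 14 genes came from 4 of the 5 complexes. Complex I gave 7, among them Ndufb11 at 394 and 287 CPM (log2 ratio −0.46), Ndufs8 at 191 and 140 CPM (−0.45) and Ndufb7 at 579 and 432 CPM (−0.43). Complex IV gave 4, with Cox6a1 at 335 and 228 CPM (−0.55, the lowest of the 76 genes) and Cox5b at 700 and 512 CPM (−0.45), a subunit on the matrix face of the enzyme. Complex III gave Uqcr11, at 340 and 244 CPM (−0.48). Complex V gave Atp5h, at 1057 and 800 CPM (−0.40, interval −0.44 to −0.36), and Atp5k, at 429 and 333 CPM (−0.37). The peripheral stalk as a group was at 2478 and 1988 CPM in non-cycling cells (−0.32, −0.34 to −0.29). Sdha stood out in the opposite direction, at 59.1 and 82.2 CPM (0.48, 0.34 to 0.61).

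Non-cycling cells were also shallower at day +14, with a median of 4858 UMIs against 6496, and their T list was at 7007 and 9596 CPM. In the CD8 gate the ratio of all subunits was therefore read within bands of depth. It was −0.20 for non-cycling cells of 3000 to 5000 UMIs, −0.16 from 5000 to 8000, −0.17 from 8000 to 12000 and −0.061 (−0.090 to −0.033) at 12000 and over, where 51 and 42 cells remained. Below 3000 UMIs the ratio was 0.51 (0.37 to 0.65), on 13 and 126 cells whose mitochondrially encoded subunits were at 67397 and 44328 CPM. Cycling CD8 cells spanned −0.24 below 5000 UMIs to −0.067 from 12000 to 18000. So the ratio was below 0 in 9 of 10 depth bands, and its size moved with depth in both states.

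Along the cycling score, CD8 cells showed a graded pattern. On both days the nuclear subunits were lowest in cells with the least cycling signal (30677 CPM at day +7 and 26756 CPM at day +14 below 1 UMI per 10000), highest between 20 and 40 (36970 and 34436 CPM), and lower again at 80 and over (32140 and 31511 CPM). The log2 ratio of the days lay between −0.20 and −0.17 in the 4 bands below 10 and was nearer to 0 in each band above, at −0.10 from 20 to 40 and −0.028 (−0.036 to −0.021) in the highest. Complex V went from −0.22 to 0.0049 (−0.0093 to 0.019) over the same bands, complex I from −0.21 to −0.052, and complex II stayed between −0.080 and 0.014. Bands are cells of the same 2 libraries and are not replicates, and the choice of 5 as the cycling cut left 470 and 570 cells between 4 and 6.

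**Figure D3:**
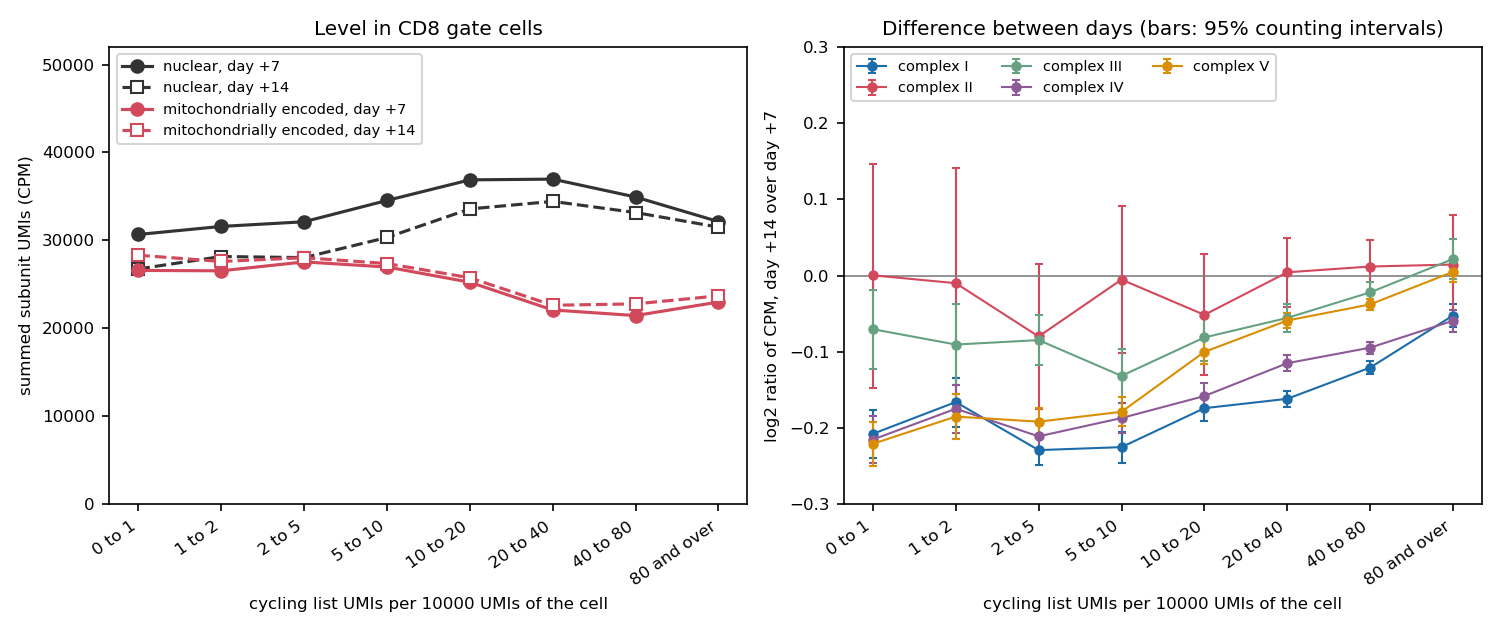
CD8 gate cells in 8 bands of cycling score (UMIs of 20 cycling genes per 10000). Left, summed CPM of nuclear and mitochondrially encoded subunits on each day, with the nuclear lines peaking between 20 and 40. Right, log2 ratio of day +14 over day +7 per complex with 95% counting intervals, nearing 0 toward the highest band for complexes I, III, IV and V and close to 0 throughout for complex II.

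The subunits were next compared between cycling and non-cycling cells of the CD8 gate within each day. Summed over all 84 genes, cycling cells were higher, by 0.16 on the log2 scale at day +7 (35257 against 31662 CPM, interval 0.15 to 0.16) and 0.25 at day +14 (33090 against 27767 CPM, 0.25 to 0.26). Complex II had the widest gap, 501 against 371 CPM (0.43, interval 0.39 to 0.48) at day +7 and 504 against 359 CPM (0.49, 0.43 to 0.55) at day +14. All 4 of its genes were higher in cycling cells on both days, led by Sdhd at day +14 (108 against 66.6 CPM, 0.69). Complex III had the narrowest, 0.068 and 0.11. CPM is a share of all UMIs, and other large classes took less of the total in cycling cells on both days. Ribosomal protein genes took 28.19% against 31.21% at day +14. Mitochondrially encoded subunits were at 23438 against 28017 CPM then. No ratio on a total without these classes is given for this contrast, and their part in the gaps was not tested.

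By gene, 28 of 76 (36.8%) were higher in cycling cells past the fold limit at day +7, against a background of 27.3%, and 40 (52.6%) at day +14, against 29.1%. The median over the 76 genes was 0.24 and 0.34, beside 0.039 and 0.015 over all genes. These backgrounds are over all genes tested, and none of like abundance is given for this contrast. The highest ratios belonged to Ndufa5, a complex I accessory subunit, at 204 against 115 CPM at day +7 and 217 against 117 CPM at day +14 (0.83 and 0.89). Atp5b was at 750 against 459 CPM and 766 against 443 CPM (0.71 and 0.79). Ndufa12 (0.63 and 0.84) and Ndufv1, the NADH-binding subunit (0.74 and 0.62), were also high.

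Only 3 genes were lower in cycling cells past that fold on each day, against backgrounds of 19.2% and 24.6%, and they were Cox7a2l, Ndufa6 and Uqcrh both times. Cox7a2l was at 299 against 485 CPM at day +7 and 253 against 408 CPM at day +14 (−0.70 and −0.69). Ndufa6, an accessory subunit of complex I, was at 228 against 317 CPM and 189 against 291 CPM (−0.48 and −0.62). Uqcrh was at 801 against 1076 CPM and 783 against 1151 CPM (−0.43 and −0.56). Most other members of their complexes were higher in cycling cells, in all T cells 29 and 30 of 35 genes of complex I, 7 of 8 of complex III and 10 of 12 of complex IV. Cox7a2 had the opposite sign to its paralog, at 707 against 483 CPM and 887 against 566 CPM (0.55 and 0.65).

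Atp5h differed in direction between days. In CD8 cells at day +7 it was lower in cycling cells, 984 against 1100 CPM (−0.16, −0.19 to −0.13), and at day +14 higher, 902 against 833 CPM (0.11, 0.078 to 0.15). Cox4i1 was at nearly equal levels in both states, 1271 against 1302 CPM and 1043 against 1052 CPM.

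**Figure D4:**
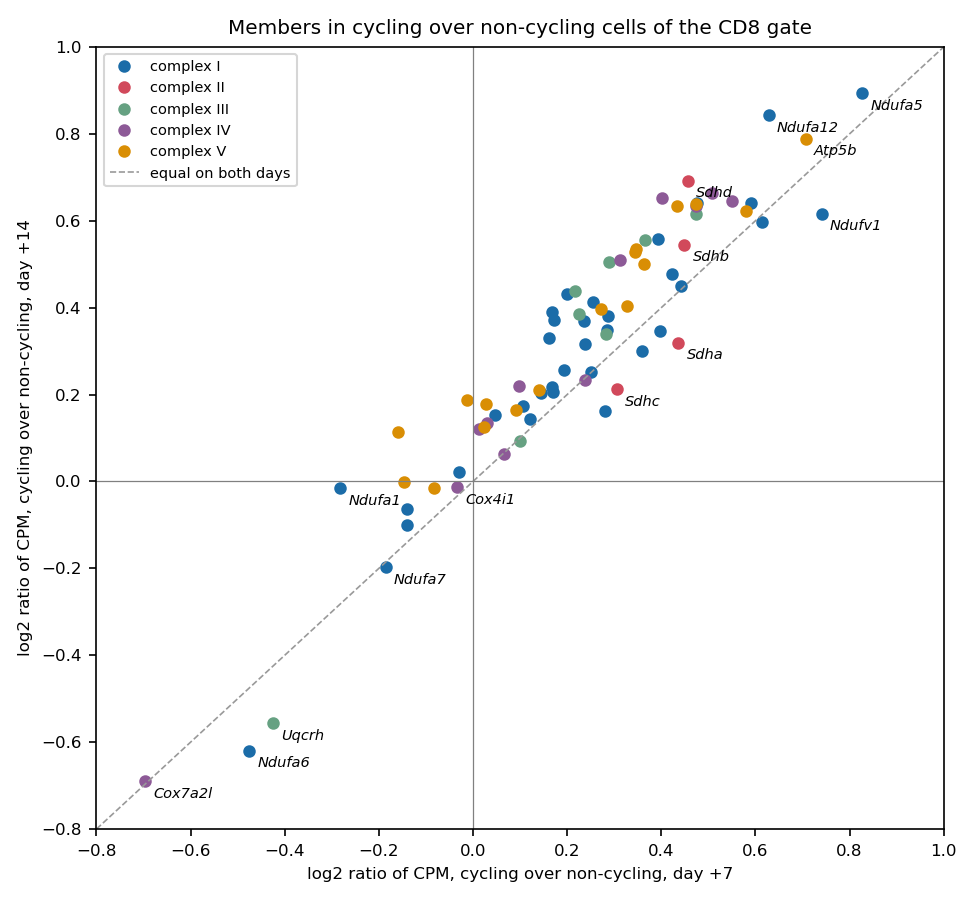
Log2 ratio of CPM in cycling over non-cycling cells of the CD8 gate for 76 subunit genes, at day +7 (x axis) and day +14 (y axis), with the dashed line where both days are equal. Most genes lie above 0 on both axes, with Ndufa5, Atp5b, Ndufa12 and Ndufv1 at the upper right, and Cox7a2l, Ndufa6 and Uqcrh form a separate group at the lower left.

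The 13 subunits encoded by mitochondrial DNA showed another pattern. They summed to 23400 and 23864 CPM, a log2 ratio of 0.028 (0.026 to 0.031). This sum lay 0.15 below the median of all genes, and the shift of 0.21 by median-ratio scaling puts it below 0 as well. The gap between nuclear and mitochondrial sums does not depend on that scaling. By complex, the mitochondrial ratios were 0.087 for complex I, 0.082 for complex III (mt-Cytb alone), 0.014 for complex IV and −0.013 for complex V, against −0.15, −0.059, −0.12 and −0.074 for their nuclear partners. Single mitochondrial genes spread further, with mt-Nd1 at 1194 and 1500 CPM (0.33), mt-Co1 at 3603 and 3242 CPM (−0.15) and mt-Atp8 at 161 and 88.6 CPM (−0.86). The last overlaps mt-Atp6 on the same transcript, so its reads cannot be fully told apart from those of its neighbor.

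Nuclear subunit UMIs per mitochondrially encoded subunit UMI numbered 1.49 at day +7 and 1.34 at day +14 in all T cells. In cycling cells the ratio was 1.57 and 1.41, and in non-cycling cells 1.17 and 0.989 (0.984 to 0.993). The CD4 gate was at 1.369 and 1.248, the CD8 gate at 1.49 and 1.35 and the Foxp3+ gate at 1.58 and 1.51. Cycling and non-cycling cells differed in opposite directions for the 2 genomes. In CD8 cells the mitochondrially encoded sum was lower in cycling cells, with a log2 ratio of −0.26 on each day, while the nuclear sum was higher. The mitochondrial limit used to keep cells bounds this ratio, and a limit of 5% gave 1.52 and 1.40 for all T cells.

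**Figure D5:**
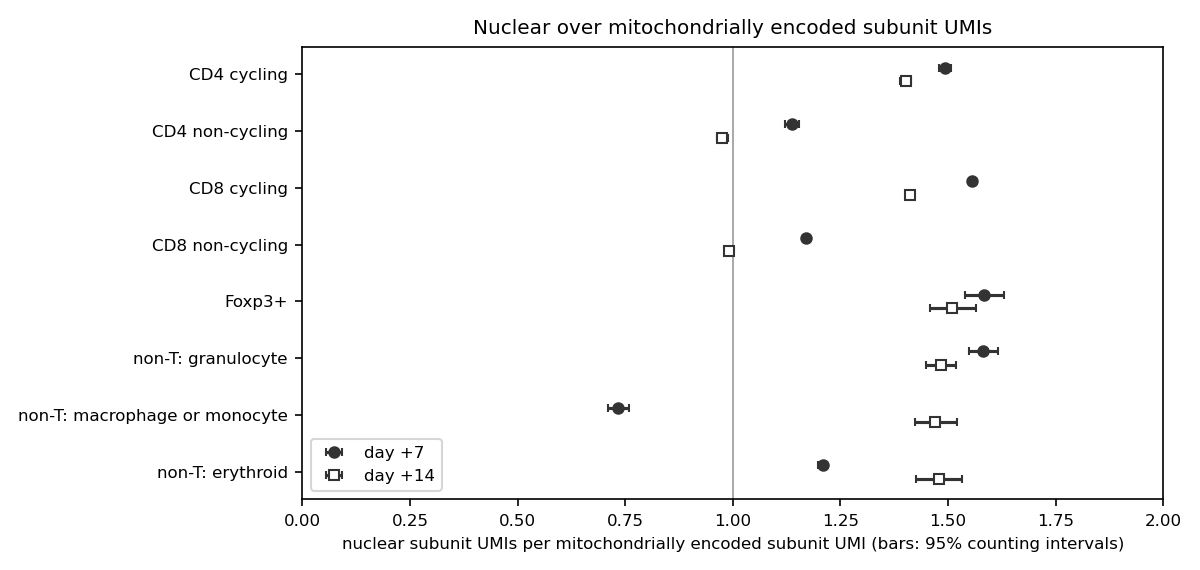
Nuclear subunit UMIs per mitochondrially encoded subunit UMI (x axis) in 5 T cell gates and 3 non-T classes at day +7 (filled) and day +14 (open), with 95% counting intervals. The day +14 value is the lower one in each T cell gate, and non-cycling cells lie near 1, while macrophage or monocyte and erythroid-type cells have the higher value at day +14.

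Non-T cells were few and their makeup differed between the days, with 47 and 85 granulocyte-type, 41 and 37 macrophage or monocyte-type, 124 and 28 erythroid-type and 0 and 3 B-type cells. Their subunit sum was 33295 and 25756 CPM (log2 ratio −0.37, interval −0.39 to −0.35), complex III had the lowest ratio (−0.51) and complex II was at −0.44. Of 77 subunit genes tested there, 45 were lower past the fold limit (background 37.4%) and 0 higher (background 34.5%). Granulocyte-type cells had the lowest levels, 24587 and 20840 CPM (−0.24), and erythroid-type cells the highest, 36001 and 36513 CPM (0.020, interval −0.014 to 0.054), and the shares of these classes differed between the days. The depth of erythroid-type cells also differed, with medians of 32598.5 and 3204 UMIs. In all T cells alone the summed ratio of all 84 genes was −0.10, close to that in all kept cells.

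Related genes outside the list are given beside all genes, of which 26.8% were lower with a median log2 ratio of 0.18. Of 36 assembly factors tested, 17 were higher and 19 lower at day +14 (median log2 ratio −0.010), and 1, Coa6, a copper-handling factor of complex IV, was lower past the fold limit, at 49.7 and 37.1 CPM (−0.42). Sdhaf1 and Sdhaf4, which help to mature complex II, were at 31.0 and 37.9 CPM (0.29) and at 37.5 and 42.8 CPM (0.19). Cox17, a copper chaperone, was at 803 and 692 CPM (−0.22). Of 13 tricarboxylic acid cycle genes, 10 were higher (median 0.14), a share and median near those of all genes, for example Cs, citrate synthase, at 78.3 and 89.6 CPM (0.20). Of 14 electron carrier genes, 12 were higher (median 0.077). Cycs, cytochrome c, was at 272 and 263 CPM (−0.051), and Cyc1 and Ndufab1, which belong to complexes III and I but lie outside the naming rule, were at 162 and 163 CPM and at 201 and 209 CPM. Of 6 biogenesis genes tested, 4 were higher (median 0.19), and Tfam, which packages mitochondrial DNA, was at 63.8 and 61.7 CPM (−0.047, interval −0.10 to 0.0084).

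The subunit genes are short and abundant, and both properties moved with the log2 ratio across genes. Over 6916 genes Spearman's rho with transcript length was 0.43, and over the 76 subunit genes 0.20. With the mean level, rho was −0.27 over the 6916 genes and −0.17 over the 76. Genes are not independent replicates, and these are descriptions. The 43 subunit genes with transcripts up to 1000 bases had a median ratio of −0.11 and so had the 33 longer ones. The shares differed, since 7 of the 43 were higher on the later day and 10 of the 33. Each gene was given a single annotated length, for example 4715 bases for Atp5g1 and 4371 for Ndufb2. Whether that transcript is the one expressed in these cells was not tested. Sdha and Ndufs1, the 2 highest, have transcripts of 2900 and 2661 bases. Ndufb1-ps, outside the sums, was at 476 and 527 CPM (0.15).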

How the data were processed

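Genes (members and lists), gates and alternatives were chosen with earlier results of these data known. The deposited files hold raw UMI counts per gene and cell, which the authors made with Cell Ranger 6.1.2 on mm10 per the labels. Whether the chemistry read the start or the end of transcripts, and which annotation was used, are not given in the sources used here. Gene positions are from GENCODE M21 and promoters from RefSeq (mm10). Counts were summed over cells of a gate and divided by all UMIs of those cells (CPM) with Python 3.11.15, numpy 2.4.6, scipy 1.17.1 and pandas 2.3.3. Intervals are exact Poisson, Clopper-Pearson or conditional binomial intervals at 95%, and cover counting error only, since amplification, capture and animals are not in them. Genes were described with a mean of at least 10 CPM and a pseudocount of 1 CPM. Named genes were, per complex, the 3 with most UMIs, the 2 highest and 2 lowest ratios, all of complex II and all paralogs. Other genes that are named were chosen after their values were seen. Sums and intervals were checked on simulated counts. Doublets were not removed in the main values. Scrublet, through scanpy 1.11.5, called 0 and 2 cells and so did not work as a caller, and leaving out the 422 and 501 cells with the highest scores was an alternative, beside other scalings, thinning to 4000 UMIs and other gates.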

Additional observations from a re-analysis of the deposited data

Results flagged for a closer look

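The non-T classes differed in direction from the T cell gates in some sums, which was seen in sums over few cells and was not tested. In macrophage or monocyte-type cells (41 at day +7 and 37 at day +14) the log2 ratio of day +14 over day +7 was 0.23 for complex I, 0.54 for complex III, 0.25 for complex IV, 0.42 for complex V and 0.32 for all subunits, whereas these sums were below 0 in the CD4, CD8, cycling and non-cycling gates. Uqcrq was at 374 and 634 CPM there and Uqcrb at 251 and 459 CPM. The mitochondrially encoded subunits of the same cells were at 36039 and 22447 CPM, a ratio of −0.68, and median depth was 3800 and 2457 UMIs. Their T list was at 1885 and 829 CPM, and the part of T cell RNA in these droplets was not tested.

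In erythroid-type cells complex IV had a ratio of 0.09 and the mitochondrially encoded subunits −0.27. In granulocyte-type cells the mitochondrially encoded subunits were at −0.15, with 15542 and 14050 CPM, against ratios above 0 in the CD4, CD8, cycling and non-cycling gates.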

How the results depend on the processing

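With 1 library per day, leaving out a replicate was not possible, and the libraries may differ in ways other than the day. No paired analysis was possible because each day has 1 library. Of 51 alternative values for all subunits in the gates, 51 were below 0 as in the main analysis. For single genes, median-ratio scaling turned 14 of the 17 subunit genes with higher CPM at day +14 to below 0 in all kept cells. It took 35 subunit genes past the fold limit downward. Neither count has the share of all genes on that scale beside it. The genes behind the median ratio differed between gates. With median-ratio scaling the log2 ratios were −0.354, −0.200, −0.267, −0.330 and −0.282 for complexes I to V, and −0.179 (CD4), −0.315 (CD8), −0.059 (Foxp3+), −0.311 (cycling) and −0.410 (non-cycling) for all subunits. With the mean of per-cell CPM they were −0.191, −0.033, −0.090, −0.172 and −0.131 for complexes I to V, and −0.184 (CD4), −0.137 (CD8), −0.160 (Foxp3+), −0.131 (cycling), −0.234 (non-cycling) and −0.287 (non-T). With a total without mitochondrial and ribosomal protein genes they were −0.153 (I), −0.129 (IV), −0.081 (V), −0.105 (CD4), −0.093 (CD8), −0.151 (Foxp3+), −0.092 (cycling) and −0.637 (non-T). Thinned to 4000 UMIs they were −0.154 (I), −0.130 (IV), −0.084 (V), −0.116 (CD4), −0.107 (CD8), −0.105 (cycling) and −0.180 (non-cycling), and the thinned ratios between gates were 0.232 for cycling over non-cycling and −0.105 for CD4 over CD8 at day +14, and −0.183 and −0.454 for non-T over T at days +7 and +14 (main −0.052 and −0.319). A mitochondrial limit of 5% gave −0.092 (CD8), −0.092 (cycling) and −0.193 (non-cycling), and 1.522 and 1.397 nuclear UMIs per mitochondrially encoded UMI. Smaller moves came from leaving out the highest Scrublet scores (cycling −0.093), T cells alone (complex III −0.044), Ndufa4 in complex I (I −0.132, IV −0.135), gates on thinned counts (cycling −0.092, non-cycling −0.163), a cycling cut of 10 (cycling −0.089) and leaving out T cells with over 20% non-T list UMIs (CD8 −0.093, cycling −0.092). Without a filter on low values the complex IV median was −0.142, 2 of its genes were lower and 1 higher past the fold limit, and over all subunits 4 were lower and 1 higher. The cause of these moves was not tested.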
